A study of Mus musculus with 17 samples.

Results

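The BCL2 family survival genes described here are 10 mouse genes, Bcl2, Mcl1, Bcl2l1, Bcl2l2, Bcl2a1b, Bak1, Bcl2l11, Bid, Bad and Bmf, taken by symbol from a table of raw read counts for 35321 genes. All 10 were found, and all 10 were among the 14920 genes that passed the filter on low counts. Polyadenylated RNA had been sequenced from HSPC (hematopoietic stem and progenitor cells, which give rise to blood) that were flow-sorted from marrow of wild-type C57BL/6J mice. Of the 17 libraries, 5 came from mice injected intraperitoneally with phosphate-buffered saline (PBS, titled day 0). Mice of the other 4 groups received lipopolysaccharide (LPS, from the outer membrane of Gram-negative bacteria, an inflammatory stimulus) by the same route, alone or with a blocking antibody to IL-10R, the receptor of the anti-inflammatory cytokine interleukin-10, and marrow was taken after 24 h or after 72 h. Each of these 4 groups had 3 libraries. No antibody was given without LPS. Doses are recorded as 5 µg LPS and 100 µg antibody in the design text but as 5 mg and 100 mg in the sample labels. Sex, age and the sorting gate are not given in the sources used here, nor is it stated that libraries came from separate mice, so p-values measure the spread between libraries.

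The BCL2 family sets the threshold of the mitochondrial, or intrinsic, pathway of apoptosis. Effector proteins (BAK, encoded by Bak1, and BAX) form pores in the outer mitochondrial membrane and release cytochrome c, pro-survival proteins (BCL2, MCL1, BCL-XL encoded by Bcl2l1, BCL-W encoded by Bcl2l2, and A1 encoded by the Bcl2a1 genes) hold the effectors in check, and BH3-only proteins (BIM encoded by Bcl2l11, BID, BAD, BMF, PUMA encoded by Bbc3 and NOXA encoded by Pmaip1) carry stress signals by binding to proteins of the other classes. In blood-forming cells MCL1 is required for the survival of stem cells, and BIM and BMF take part in the death of cells that lose growth factor support.

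Library totals ran from 10516722 to 16006001 counts. Library 1 of LPS at 24 h stood apart by its scaling factor, 0.7985 against 0.9473 to 1.119 in the other libraries, and by its number of detected genes, 16431 against at least 16815. Library 1 of LPS plus antibody stood apart at each time by the interferon-responsive chemokine gene Cxcl10, with 55.1 CPM (a gene's count scaled to a common library total) at 24 h and 428.7 at 72 h against 0.585 to 9.53 in the other libraries. HSPC markers were present in PBS libraries, with Kit at 399 ± 60.8 CPM and Cd34 at 691 ± 77.3 CPM (SD, n = 5), and of 59 markers of all cell types listed, Ly6g alone was at 0 throughout a group (LPS plus antibody at 72 h). After LPS at 24 h, 7 of 10 HSPC markers and 8 of 10 monocyte and macrophage markers fell against PBS (18.5% of all genes did), and their summed levels were 936.1 to 1109 CPM against 1613 to 2440 for HSPC markers and 397.8 to 772.9 CPM against 622.3 to 2795 for monocyte and macrophage markers. Summed B cell markers were 72.8 to 95.7 CPM against 386.3 to 1339 in PBS, without overlap (3 of 8 fell), and summed erythroid markers were 741.8 to 1682 CPM against 544.8 to 878.5 (1 of 10 rose and 1 fell). With the antibody at 24 h 6 of 10 HSPC markers fell and 1 rose, beside 12.5% and 11.7% of all genes. With the antibody at 72 h 2 of 10 fell, beside 6.43% of all genes. None fell after LPS alone at 72 h, where 0% of all genes were called lower. Fewer cells of a type and less RNA per cell cannot be told apart in such bulk libraries, and the part of cell makeup in the changes below was not tested.

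The bases just before the RefSeq start sites of 3 members are shown, since Bak1 rose and Bmf fell after LPS and Bcl2l11 was high in a single pair of libraries. Each is the stretch of 250 bases before the RefSeq start (assembly GRCm38.p6), written 5′ to 3′ on the strand of the gene, at chr17:27028628-27028877 (minus strand) for Bak1, chr2:118549687-118549936 (minus strand) for Bmf and chr2:128125788-128126037 (plus strand) for Bcl2l11. Capitals mark matches, on either strand, to any of 4 patterns: the NF-kB pattern GGGNNNNNCC, the STAT pattern TTCNNNGAA, the interferon response pattern GAAANNGAAA and the FOXO pattern GTAAACA.
Bak1: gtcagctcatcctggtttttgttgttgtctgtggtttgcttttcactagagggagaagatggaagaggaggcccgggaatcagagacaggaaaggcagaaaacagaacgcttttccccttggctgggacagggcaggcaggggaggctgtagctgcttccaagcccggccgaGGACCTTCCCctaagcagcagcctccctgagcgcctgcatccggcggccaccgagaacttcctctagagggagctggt
Bmf: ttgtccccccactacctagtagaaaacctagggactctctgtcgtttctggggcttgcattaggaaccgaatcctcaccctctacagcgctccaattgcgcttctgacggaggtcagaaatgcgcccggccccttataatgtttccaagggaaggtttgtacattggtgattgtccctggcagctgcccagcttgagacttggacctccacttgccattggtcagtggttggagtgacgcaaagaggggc
Bcl2l11: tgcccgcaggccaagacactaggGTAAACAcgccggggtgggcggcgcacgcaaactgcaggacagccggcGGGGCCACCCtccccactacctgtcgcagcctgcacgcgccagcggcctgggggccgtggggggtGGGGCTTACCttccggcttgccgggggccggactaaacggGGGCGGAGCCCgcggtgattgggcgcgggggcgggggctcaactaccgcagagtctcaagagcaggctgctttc

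Bak1 held 1 match to the NF-kB pattern, which 45.8% of 32851 promoter stretches of the same length also hold. Bmf held no match to any of the 4 patterns. Bcl2l11 held 4 matches to the NF-kB pattern, a pair of them overlapping, and 1 to the FOXO pattern, which 3.17% of the stretches hold. G and C made up 72.0% of the Bcl2l11 stretch, against a median of 52.4% over all stretches. The share of stretches with as many NF-kB matches was not counted. RefSeq start entries numbered 2 for Bcl2l11 and 3 for Bmf, and the entry nearest the GENCODE gene start was used. No member had the STAT or the interferon response pattern in its 250 bases, as against 7.02% and 2.98% of all stretches. A match or its absence describes these letters in this window only. The Bak1 window lies inside the GENCODE span of the gene given below, which starts further upstream than the RefSeq start.

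Bcl2a1b belongs to a cluster of near-identical copies on chromosome 9, and the copies are shown because reads cannot easily be assigned among them. The transcripts of Bcl2a1b and Bcl2a1d were the same at 810 of 817 aligned bases (99.1%), and those of Bcl2a1a and Bcl2a1b at 802 of 817 (98.2%). Of the 768 stretches of 50 bases in the Bcl2a1b transcript, 442 (57.6%) also occur in the Bcl2a1a or Bcl2a1d transcript, and 608 (79.2%) occur in some other gene. The 250 bases before each RefSeq start are given for Bcl2a1b (chr9:89199023-89199272, plus strand), Bcl2a1a (chr9:88956670-88956919, plus strand) and Bcl2a1d (chr9:88731851-88732100, minus strand), with capitals where an aligned base differs from Bcl2a1b.
Bcl2a1b: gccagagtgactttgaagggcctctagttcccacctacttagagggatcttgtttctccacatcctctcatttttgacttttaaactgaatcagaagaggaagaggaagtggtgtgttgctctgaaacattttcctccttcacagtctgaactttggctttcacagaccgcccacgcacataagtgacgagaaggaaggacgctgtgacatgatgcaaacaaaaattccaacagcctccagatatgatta
Bcl2a1a: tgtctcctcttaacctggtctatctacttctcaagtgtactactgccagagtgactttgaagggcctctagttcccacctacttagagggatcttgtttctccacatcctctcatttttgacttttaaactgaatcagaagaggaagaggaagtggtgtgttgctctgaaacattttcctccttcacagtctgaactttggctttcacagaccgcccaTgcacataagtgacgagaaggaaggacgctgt
Bcl2a1d: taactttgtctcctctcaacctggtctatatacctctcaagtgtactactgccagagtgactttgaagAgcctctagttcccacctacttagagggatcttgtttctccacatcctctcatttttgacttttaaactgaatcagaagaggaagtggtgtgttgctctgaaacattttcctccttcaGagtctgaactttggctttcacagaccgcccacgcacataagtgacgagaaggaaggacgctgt

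Over the shared stretch, Bcl2a1a and Bcl2a1b had the same base at 205 of 206 positions, and Bcl2a1b and Bcl2a1d at 198 of 206, with 6 gap positions. The last bases shown for each copy lie inside its GENCODE gene span, which starts upstream of the RefSeq start. A further gene on the same strand, Gm29094, shares 49.1% of the exon bases of Bcl2a1b. A count printed for Bcl2a1b is therefore uncertain, and the summed level of the 3 copies is given beside its values per library. That sum does not include reads counted for Gm29094.

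The other members lie apart from each other in the genome (GRCm38, GENCODE M21 gene spans). Bcl2 spans chr1:106538178-106714274, Mcl1 chr3:95658788-95663176, Bcl2l1 chr2:152780668-152831728, Bcl2l2 chr14:54883377-54888234, Bak1 chr17:27019810-27029009, Bcl2l11 chr2:128126038-128162547, Bid chr6:120891930-120916853, Bad chr19:6941861-6951899, Bmf chr2:118528757-118549687 and Bcl2a1b chr9:89199209-89207827. Several share exon sequence with a neighbour on the opposite strand: 18.2% of the exon bases of Bak1 lie in a Ggnbp1 annotation, 17.7% of those of Bid in Bcl2l13 and 20.5% of those of Bad in Gpr137. Whether strand was used in counting is not given in the sources used here, so reads of these stretches cannot be assigned. Bcl2l2 shares 13.3% of its exon bases with Gm20521 on the same strand, and Bmf, Mcl1 and Bcl2l1 shared no stretch of 50 bases with another gene.

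In unchallenged HSPC, Mcl1 and Bak1 had the highest levels of the 10 members. Per kilobase of exon, PBS libraries held 55.5 ± 5.11 CPM of Mcl1 and 44.3 ± 9.35 of Bak1 (mean ± SD, n = 5), and the ranges of the pair overlapped. Bid followed at 21.3 ± 4.13, above Bcl2 at 12.4 ± 1.38 and Bad at 10.5 ± 1.09, whose ranges overlapped each other. Bcl2l2 (5.03 ± 0.709), Bcl2l1 (4.80 ± 0.387) and Bcl2a1b (4.20 ± 2.06, for this copy alone and so uncertain) could not be ordered by their ranges. Bcl2l11 stood at 2.75 ± 0.326 and Bmf, the lowest, at 1.29 ± 0.413 CPM per kilobase. After LPS at 24 h the effector gene was above the leading pro-survival gene, with Bak1 at 90.8 and Mcl1 at 51.6 CPM per kilobase on average and no overlap between the 2 genes' libraries. The lengths are those of all annotated exons merged, and the Bak1 count may include reads of Ggnbp1, so the order of genes is approximate.

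**Figure D1:**
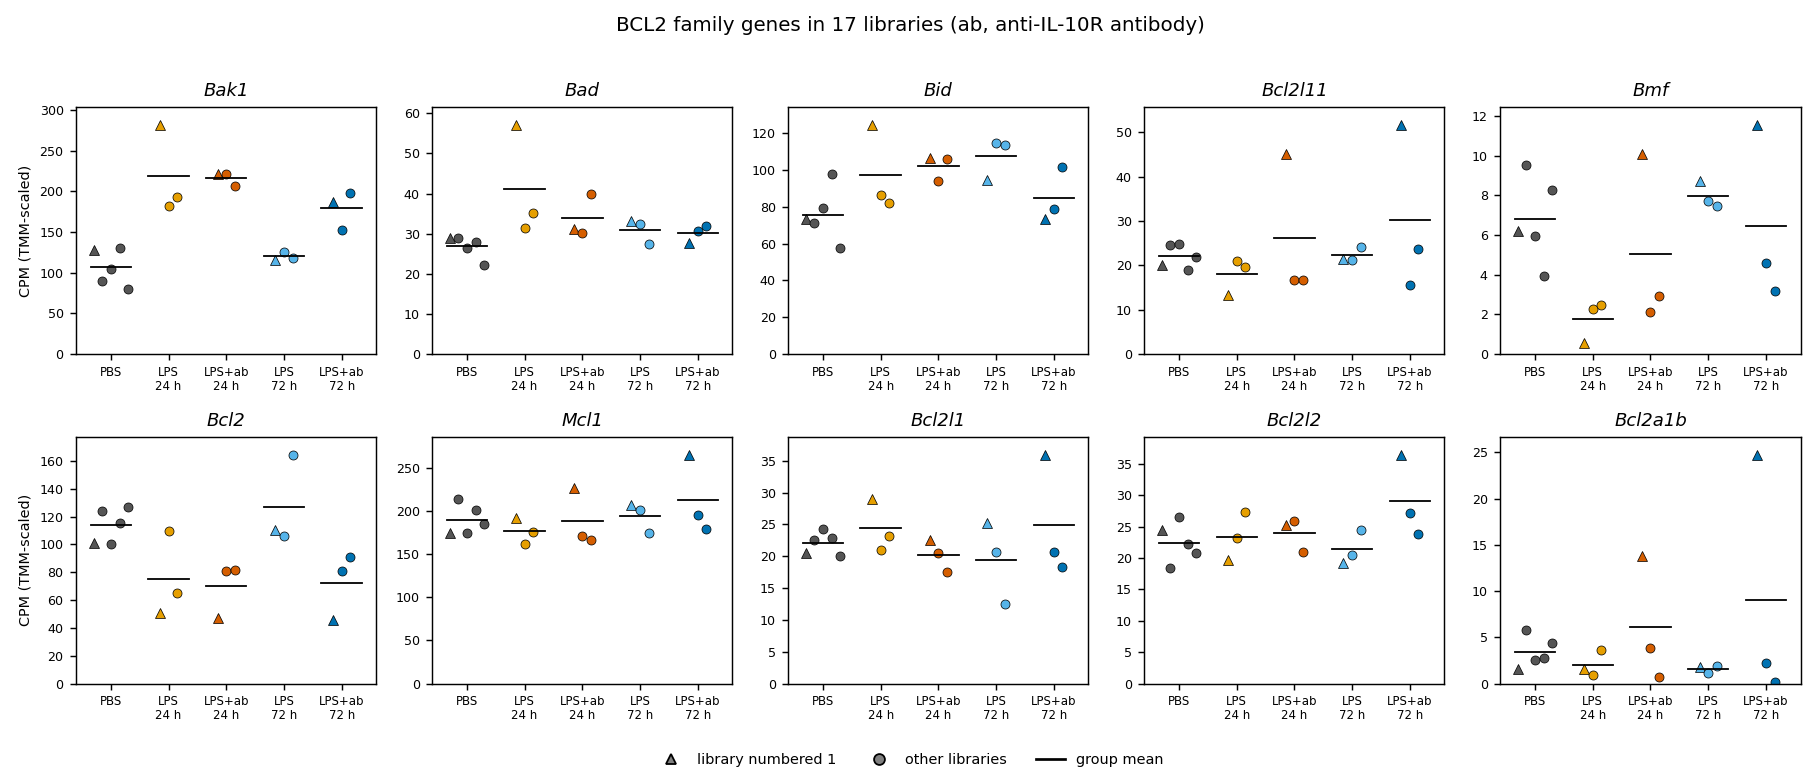
Level of each of the 10 genes (CPM, linear axis from 0, own scale per panel) in every library of the 5 groups; triangles are libraries numbered 1, circles the others, bars the group means, and ab stands for the IL-10R antibody. All LPS libraries at 24 h lie above all PBS libraries for Bak1, and the triangles of the 2 antibody groups lie high for Bcl2l11, Bmf and Bcl2a1b and low for Bcl2.

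Against PBS, LPS at 24 h raised Bak1 and Bad and lowered Bmf, and the other 7 members did not pass the test. These 3 of 10 members passed edgeR's quasi-likelihood test at an adjusted p below 0.05, where 37.6% of all genes did (19.1% higher and 18.5% lower). The same 3 members had no overlap between the libraries of the groups, as had 42.8% of all genes. The median log2 change of the members was -0.02, and that of all genes -0.03. The share of members called was thus near that of all genes. Without library 1 of LPS at 24 h, 1 member and 22% of all genes were called. With upper-quartile factors the same numbers of members were called, but the calls over all genes split into 13.6% higher and 23.4% lower.

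With LPS plus antibody, Bak1 was the member that rose against PBS, at 24 h and again at 72 h. At 24 h 1 of 10 members was called, against 24.2% of all genes (11.7% higher, 12.5% lower), and the libraries did not overlap for Bak1, Bad and Bcl2, against 31% of all genes. At 72 h 1 of 10 was called, against 13.2% of all genes (6.81% higher, 6.43% lower), and the libraries did not overlap for Bak1 and Bcl2, against 26.9% of all genes. The members' median log2 change was 0.17 at each time, and that of all genes -0.001 and -0.0025. These comparisons share the PBS libraries with each other and with that of LPS alone. The shares of all genes rested on single libraries: at 24 h 5.73% without library 2 of LPS plus antibody, 15.8% without PBS library 2 and 15.3% without PBS library 5, and at 72 h 4.54% without library 1 and 3.82% without library 3 of LPS plus antibody, and 6.32%, 8.25% and 6.84% without PBS library 2, 3 or 5. With the replicate number as a block they were 11.5% at 24 h and 2.51% at 72 h. Upper-quartile factors gave 7.51% higher and 15.6% lower at 24 h, and 4.42% higher and 9.03% lower at 72 h.

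After LPS alone no member differed from PBS at 72 h by edgeR's test, where 0.0201% of all genes were called, all of them higher (0.0201% higher, 0% lower). By an unadjusted p below 0.05, 1 member (Bid) and 11.4% of all genes passed, and DESeq2 called 0 members and 1.19% of all genes. Over all genes, edgeR called 3 genes with all libraries and between 0 and 3 with a single library left out. The libraries overlapped for all 10 members, and did not overlap for 12% of all genes. From 24 h to 72 h after LPS alone, Bak1 fell and Bmf rose, 2 of 10 members against 31.1% of all genes (14.7% higher, 16.4% lower, or 18.7% and 12.9% with upper-quartile factors). The libraries of the 2 times did not overlap for Bak1, Bmf and Bcl2l11, against 45.4% of all genes.

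The antibody itself, tested as LPS plus antibody against LPS alone at the same time, gave no called member. At 24 h 0 of 10 members and 0% of all genes were called by edgeR, and 1 member (Bmf) and 1.83% of all genes passed an unadjusted p below 0.05. DESeq2 called 0 members and 0.00671% of all genes, and no member's libraries were apart, as against 3.15% of all genes. At 72 h edgeR called 0 of 10 members, against 15.1% of all genes (8.64% higher, 6.48% lower, or 6.49% and 8.81% with upper-quartile factors). An unadjusted p below 0.05 was reached by 3 members (Bak1, Bcl2 and Bcl2l2) and by 32.5% of all genes, and DESeq2 called 2 members (Bak1 and Bcl2) and 20.3% of all genes, so that these counts were also near the shares of all genes. The 15.1% became 5.02% without library 1 and 7.8% without library 2 of LPS at 72 h, and 9.29% without library 1 of LPS plus antibody at 72 h. At that time the libraries did not overlap for Bak1 and Bcl2, against 33.2% of all genes. A change in the antibody effect from 24 h to 72 h was called for 0 members by edgeR and by DESeq2, against 6.35% of all genes by edgeR (4.03% higher, 2.32% lower, or 2.92% and 2.95% with upper-quartile factors) and 11.2% by DESeq2. With edgeR, 1 member (Bak1) and 24.2% of all genes passed an unadjusted p below 0.05. Without the 3 libraries that stood apart, edgeR's test of this change called 1 gene of 15111 in place of 947 of 14920, and a fit blocked by replicate number called 333. With a single library left out it called between 231 genes (library 1 of LPS at 72 h) and 1544 genes (library 2 of LPS plus antibody at 24 h), and fewer than 600 also without LPS at 24 h library 3, LPS plus antibody at 24 h library 1 or 3, LPS at 72 h library 2 or LPS plus antibody at 72 h library 3. Between 72 h and 24 h of LPS plus antibody 0 members and 0% of all genes were called by edgeR, and 0 members and 4.26% of all genes passed an unadjusted p below 0.05. DESeq2 called 0 members and 0.0134% of all genes, and the libraries were apart for 1 member (Bak1) and 9.26% of all genes.

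**Figure D2:**
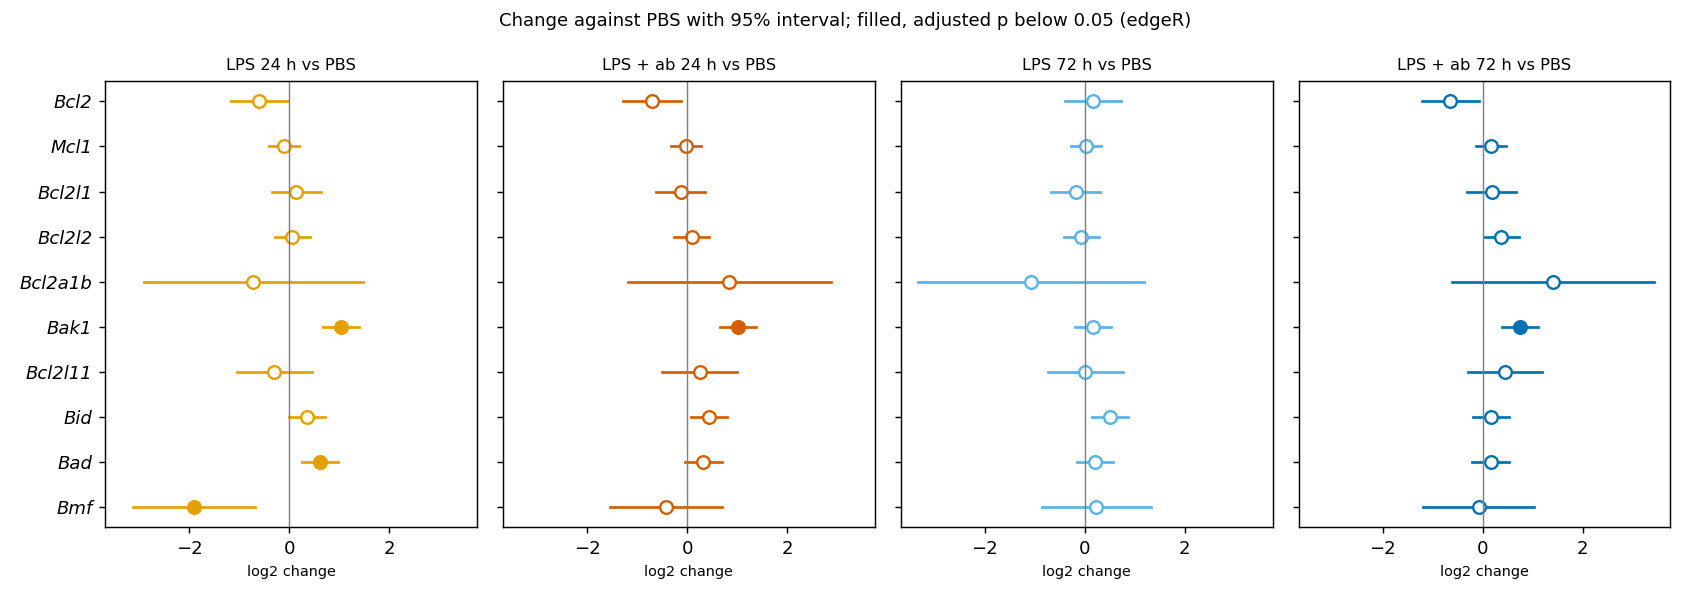
Log2 change against PBS (x axis) of the 10 genes (rows) in the 4 groups given LPS (panels), with 95% intervals from edgeR; filled points are calls at an adjusted p below 0.05. Bak1 is filled in 3 of the 4 panels, at 1.04, 1.02 and 0.75, and the intervals of Mcl1 span 0 in all 4.

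Bak1, the effector, was about 2-fold higher at 24 h after LPS, with or without the antibody. The PBS libraries held 128, 90.2, 104, 131 and 80.1 CPM of Bak1. The LPS libraries at 24 h held 281, 182 and 193 CPM, and those of LPS plus antibody at 24 h held 221, 222 and 207 CPM. Each of these 6 libraries lay above all 5 PBS libraries. The log2 change was 1.04 (SE 0.17, edgeR adjusted p = 0.000613) after LPS and 1.02 (SE 0.17, adjusted p = 0.00355) with the antibody. Without library 1 of LPS at 24 h, the highest of all 17 for Bak1, the change after LPS was 0.83 (adjusted p = 0.00531). The antibody effect at 24 h was -0.01 on the log2 scale, with a 95% interval from -0.42 to 0.39.

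At 72 h the groups parted for Bak1. The libraries of LPS alone held 116, 126 and 119 CPM, within the PBS range, and those of LPS plus antibody held 187, 153 and 198 CPM, above every PBS library. The log2 change against PBS was 0.17 (SE 0.17, adjusted p = 0.71) after LPS alone and 0.75 (SE 0.17, adjusted p = 0.0141) with the antibody. From 24 h to 72 h after LPS alone Bak1 fell by 0.86 on the log2 scale (SE 0.19, adjusted p = 0.00368), and without library 1 of LPS at 24 h by 0.62 (adjusted p = 0.0247). The antibody effect at 72 h was 0.58 (95% interval 0.17 to 0.98) with an edgeR adjusted p of 0.0529, just past the threshold, and the test that the effect differed between 72 h and 24 h gave 0.59 (95% interval 0.02 to 1.16, adjusted p = 0.193). The antibody effect at 72 h passed with DESeq2 (0.57, adjusted p = 0.0319), in a fit of only the groups compared (0.61, adjusted p = 0.0415), with a block for the replicate number (0.57, adjusted p = 0.0399) and without library 2 of LPS plus antibody at 72 h (0.72, adjusted p = 0.0345). It did not pass in the other 10 of 14 alternatives, with adjusted p up to 0.157, among them 0.0666 without the 3 libraries that stood apart. The call of LPS plus antibody against PBS at 72 h was lost without library 3 of that group (0.67, adjusted p = 0.0611).

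Ggnbp1, the gene that overlaps Bak1 on the opposite strand, moved in parallel with it. Its levels were 45.1 ± 7.28 CPM in PBS (n = 5), 77.4 ± 5.82 after LPS and 80.3 ± 3.87 after LPS plus antibody at 24 h, 44.1 ± 4.47 after LPS and 73.2 ± 8.92 after LPS plus antibody at 72 h (SD, n = 3 each). Its antibody effect at 72 h was called, at 0.73 on the log2 scale (SE 0.15, edgeR adjusted p = 0.00588). How much of either count comes from reads of the other gene was not tested. The genes whose log2 CPM followed that of Bak1 most closely over the 17 libraries were Nubp2 (Pearson r = 0.975) and Srp19 (r = 0.972), out of 7454 genes compared. Nubp2, for a cytosolic iron-sulfur assembly protein, stood at 64.3 ± 14.2 CPM in PBS and 138 ± 37.8 after LPS at 24 h.

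**Figure D3:**
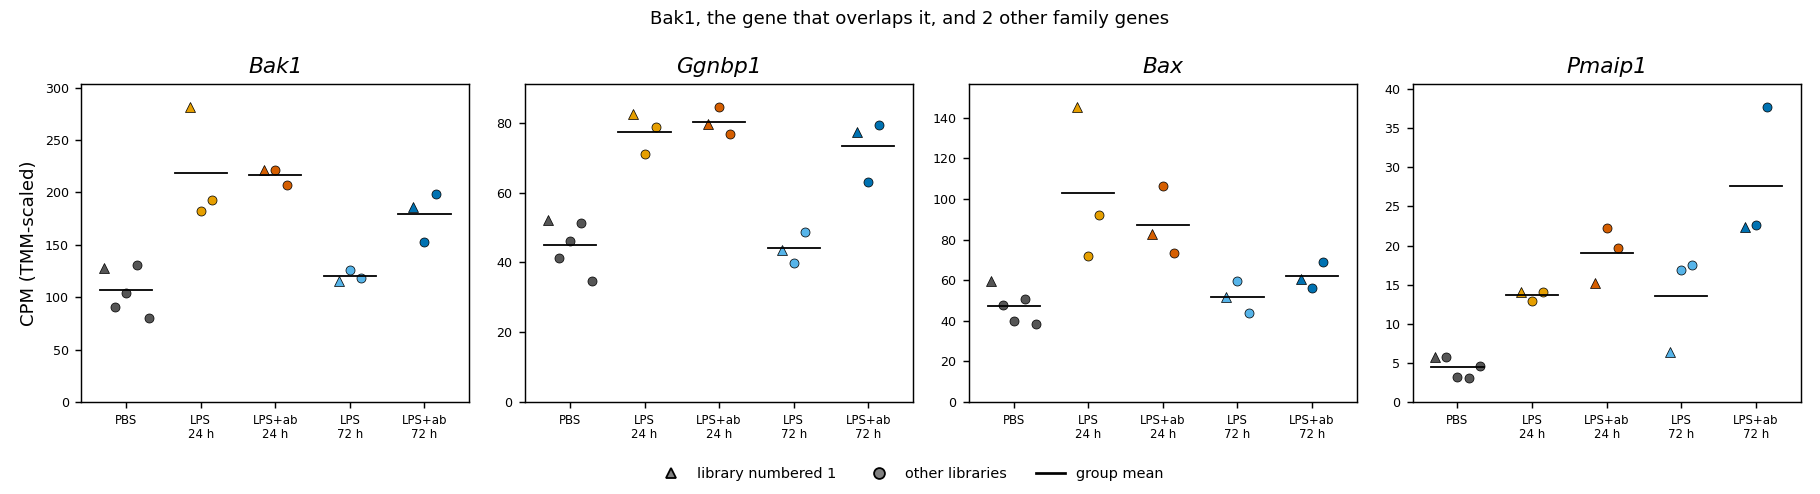
Level (CPM, linear axis from 0, own scale per panel) of Bak1, of Ggnbp1, which overlaps it, and of the family genes Bax and Pmaip1 in every library; triangles are libraries numbered 1, circles the others, bars the group means. Bak1 and Ggnbp1 are near the PBS level after LPS alone at 72 h and above it in the other 3 groups given LPS, while Pmaip1 is above all PBS libraries in each LPS library.

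Bax, the partner effector of Bak1, rose at 24 h as well. PBS libraries held 59.6, 47.8, 40.1, 50.9 and 38.5 CPM of Bax, LPS libraries at 24 h 145, 71.8 and 92.1, and LPS plus antibody libraries at 24 h 82.6, 106 and 73.5. All 6 lay above the PBS libraries. The log2 change was 1.12 (SE 0.20, edgeR adjusted p = 0.00107) after LPS and 0.88 (SE 0.20, adjusted p = 0.00899) with the antibody, the latter 0.72 (adjusted p = 0.0619) without library 2 of LPS plus antibody at 24 h. At 72 h the changes against PBS were 0.13 after LPS (adjusted p = 0.839) and 0.39 with the antibody (adjusted p = 0.206), and Bax fell by 0.99 (adjusted p = 0.0051) from 24 h to 72 h of LPS alone.

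Among the BH3-only members, Bmf was the gene that fell after LPS at 24 h. PBS libraries held 6.22, 9.52, 5.97, 3.95 and 8.28 CPM of Bmf and LPS libraries at 24 h 0.556, 2.27 and 2.49, all below the lowest PBS library. The first of these 3 values is library 1, which had 6 counts of Bmf. The log2 change was -1.90 (SE 0.58, edgeR adjusted p = 0.0175). By 72 h of LPS alone the libraries held 8.71, 7.69 and 7.46 CPM, inside the PBS range, and the rise from 24 h was 2.13 (SE 0.62, adjusted p = 0.0169). Without library 1 of LPS at 24 h neither call held, with values of -1.49 (adjusted p = 0.0898) and 1.75 (adjusted p = 0.0635), whereas without all 3 libraries that stood apart both were called, at -1.50 (adjusted p = 0.0068) and 1.73 (adjusted p = 0.00357). With the antibody, 2 of 3 libraries at 24 h were also below the PBS libraries (2.11 and 2.93 CPM) and library 1 was at 10.1, so that the antibody effect was 1.48 with all libraries (adjusted p = 1) and 0.08 (adjusted p = 1) without the 3 libraries that stood apart. The genes most like Bmf over the 17 libraries were 0610039K10Rik (r = 0.95) and Tapt1 (r = 0.949).

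Bad was higher after LPS at 24 h, and this rested on library 1. The libraries held 57, 31.4 and 35.2 CPM after LPS against 29, 29, 26.5, 27.9 and 22.3 CPM in PBS. The groups did not overlap, and library 1 stood well above the other 2 of its group. The log2 change of Bad was 0.61 (SE 0.17, edgeR adjusted p = 0.0115), 0.32 (adjusted p = 0.114) without that library and 0.53 (adjusted p = 0.0699) with a block for the replicate number. LPS plus antibody at 24 h gave 31.2, 30.2 and 40.0 CPM, also above every PBS library, with a change of 0.33 that did not pass (adjusted p = 0.173). At 72 h the values were 33.2, 32.4 and 27.4 CPM after LPS and 27.8, 30.7 and 31.8 with the antibody, overlapping those of PBS. Over the 17 libraries Bad was most like Tomm6os (r = 0.945) and Sdhb, a subunit of mitochondrial succinate dehydrogenase (r = 0.945).

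Bid, which links death receptors to mitochondria once cut by caspase-8, was above its PBS mean in all 4 groups without passing the test in any. Its level was 75.8 ± 14.7 CPM in PBS (n = 5), 97.5 ± 23.3 after LPS and 102 ± 7.07 after LPS plus antibody at 24 h, 108 ± 11.2 and 84.7 ± 15.1 at 72 h (SD, n = 3 each). The log2 changes of Bid against PBS were 0.36 (adjusted p = 0.104), 0.43 (adjusted p = 0.0751), 0.51 (adjusted p = 0.286) and 0.16 (adjusted p = 0.551) in that order. Library 4, the highest PBS library at 98 CPM, decided the first pair: without it they were 0.47 (adjusted p = 0.0346) and 0.54 (adjusted p = 0.0297).

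Bcl2l11, for BIM, stayed within a narrow range in 15 of 17 libraries. It held 20.1, 24.6, 24.8, 19.0 and 22.0 CPM in PBS, 13.4, 21.0 and 19.5 after LPS at 24 h, and 21.5, 21.1 and 24.1 after LPS at 72 h. With the antibody, library 1 held 45.2 CPM at 24 h and 51.6 at 72 h, while the other libraries held 16.8 and 16.7 at 24 h and 15.5 and 23.7 at 72 h. The antibody effect on Bcl2l11 was 0.55 at 24 h (SE 0.39, adjusted p = 1) and 0.44 at 72 h (SE 0.39, adjusted p = 0.457). Without library 1 of the antibody group at each time the effects were -0.10 (adjusted p = 1) and -0.14 (adjusted p = 0.854).

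The pro-survival members had no call in any of the 9 comparisons. Bcl2 came closest. Its PBS libraries held 101, 124, 100.1, 116 and 127 CPM, and those of LPS plus antibody held 47.3, 81.1 and 81.9 at 24 h and 45.9, 80.7 and 91.2 at 72 h, all below the lowest PBS library. LPS alone gave 50.9, 109.5 and 65.2 CPM at 24 h and 110.2, 106 and 164 at 72 h, overlapping PBS at both times. The log2 changes of Bcl2 against PBS were -0.70 (SE 0.27, edgeR adjusted p = 0.0707) and -0.65 (SE 0.27, adjusted p = 0.114) with the antibody and -0.59 (SE 0.27, adjusted p = 0.0932) after LPS at 24 h. The antibody effect on Bcl2 at 72 h was -0.81 (SE 0.30, 95% interval -1.44 to -0.18, adjusted p = 0.0763).

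Calls on Bcl2 depended on the fit. At 24 h of LPS plus antibody against PBS it passed with DESeq2 (-0.69, adjusted p = 0.0403), with upper-quartile factors (-0.81, adjusted p = 0.0479) and in a fit of only the groups compared (-0.68, adjusted p = 0.027). The antibody effect at 72 h passed with DESeq2 (-0.82, adjusted p = 0.0386) and with a block for the replicate number (-0.86, adjusted p = 0.0402). After LPS at 24 h Bcl2 passed without library 2, the highest of that group (-0.97, adjusted p = 0.0157). From 24 h to 72 h of LPS alone the change of Bcl2 was 0.75 (adjusted p = 0.0638), and it was called in 5 of 14 alternatives. Without the 3 libraries that stood apart, Bcl2 gave -0.48 (adjusted p = 0.0951) and -0.40 (adjusted p = 0.19) against PBS with the antibody at 24 h and 72 h.

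Mcl1, the most abundant pro-survival transcript, was the steadiest member. Its 17 values ran from 162 to 265 CPM, a ratio of 1.63 between the highest and the lowest, where Bak1 had a ratio of 3.51. The group means were 190 ± 17.5 CPM in PBS (n = 5), 176 ± 14.7 and 188 ± 33.2 at 24 h after LPS without and with the antibody, and 194 ± 17 and 213 ± 45.5 at 72 h (SD, n = 3 each). The log2 changes of Mcl1 against PBS were -0.11 (95% interval -0.41 to 0.19) and -0.02 (-0.31 to 0.28) at 24 h, and 0.03 (-0.27 to 0.33) and 0.17 (-0.13 to 0.46) at 72 h. All 4 intervals span 0.

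Bcl2l1 and Bcl2l2 were low and likewise without a call. Bcl2l1 held 22.0 ± 1.78 CPM in PBS (n = 5), and its means in the groups given LPS lay between 19.4 and 24.9. Its lowest value, 12.4 CPM, was in library 3 of LPS at 72 h and its highest, 35.9, in library 1 of LPS plus antibody at 72 h. Bcl2l2 held 22.5 ± 3.16 CPM in PBS and 29.1 ± 6.53 after LPS plus antibody at 72 h (n = 3), which differ by 0.37 on the log2 scale (SE 0.16, edgeR adjusted p = 0.132). The antibody effect on Bcl2l2 at 72 h was 0.44 (SE 0.19, adjusted p = 0.112), and its libraries of 36.4, 27.1 and 23.8 CPM overlapped those of LPS alone at 19.2, 20.5 and 24.5. The count ratio of Bcl2l1 to Mcl1, which needs no scaling, was 0.117 ± 0.0138 in PBS (n = 5) and lay between 0.0988 and 0.138 as a mean in the groups given LPS (n = 3 each).

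Bcl2a1b was near the lower end of detection and the most variable member. PBS libraries held 1.57, 5.82, 2.58, 2.76 and 4.42 CPM (3.27, 11.1, 5.11, 5.76 and 9.19 for the sum of Bcl2a1a, Bcl2a1b and Bcl2a1d). LPS alone gave 1.58, 0.961 and 3.64 at 24 h and 1.83, 1.10 and 1.90 at 72 h (2.87, 2.75 and 7.14, then 4.58, 3.46 and 4.46 for the sum). With the antibody the values were 13.8, 3.83 and 0.732 at 24 h and 24.7, 2.24 and 0.141 at 72 h, so that the highest and the lowest of the 17 libraries, the latter with 2 counts, belonged to the same group. The summed level of Bcl2a1a, Bcl2a1b and Bcl2a1d followed the same order at 72 h, with 42.1, 5.51 and 0.495 CPM, and was 25.2, 7.34 and 1.22 CPM at 24 h. The antibody effect on Bcl2a1b was 1.56 (SE 1.13, edgeR adjusted p = 1) at 24 h and 2.48 (SE 1.17, adjusted p = 0.156) at 72 h, and the latter was -0.45 (adjusted p = 0.834) without library 1 of LPS plus antibody.

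Library 1 of LPS plus antibody differed from the rest across several members at both times. Of all 17 libraries, the libraries numbered 1 at 24 h and 72 h were the 2 highest for Mcl1 (226 and 265 CPM, the others 162 to 214), Bcl2l11 (45.2 and 51.6, the others 13.4 to 24.8), Bmf (10.1 and 11.5, the others 0.556 to 9.52) and Bcl2a1b (13.8 and 24.7, the others 0.141 to 5.82). They were also the 2 lowest for Bcl2, at 47.3 and 45.9 CPM, the others holding 50.9 to 164. For Bak1 they were unremarkable, at 221 and 187 CPM within 80.1 to 281. The count ratio of Bcl2l11 to Bcl2 was 0.956 in library 1 at 24 h and 1.12 in library 1 at 72 h, and at most 0.299 in each of the other 15 libraries. The mean ratio was 0.196 ± 0.0325 in PBS (n = 5), 0.251 ± 0.0547 after LPS at 24 h, 0.456 ± 0.433 with the antibody, 0.18 ± 0.0293 after LPS at 72 h and 0.525 ± 0.519 with the antibody (n = 3 each).

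Summed erythroid markers were highest of their group in these libraries, at 2874 CPM at 24 h (the group from 279.8) and 1765 CPM at 72 h (the group from 291.2), and so were summed megakaryocyte markers (263 and 254 CPM) and HSPC markers (1391 and 1733 CPM). Of these HSPC sums, the marker Ly6a alone gave 529.9 and 632.3 CPM, where its lowest library of the group held 58.1 and 64.7. Summed without Ly6a, the HSPC markers were not highest of their group at either time. Summed T and NK cell markers (82.6 and 48.6 CPM) and neutrophil markers (51.7 and 11.9 CPM) were lowest of their group at both times. Summed monocyte and macrophage markers were highest of the group at 24 h (856.3 CPM) and lowest at 72 h (497.9 CPM). The part of other cells or of the handling of these libraries was not tested. No batch is named in the labels, and a shared origin of same-numbered libraries is not stated.

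**Figure D4:**
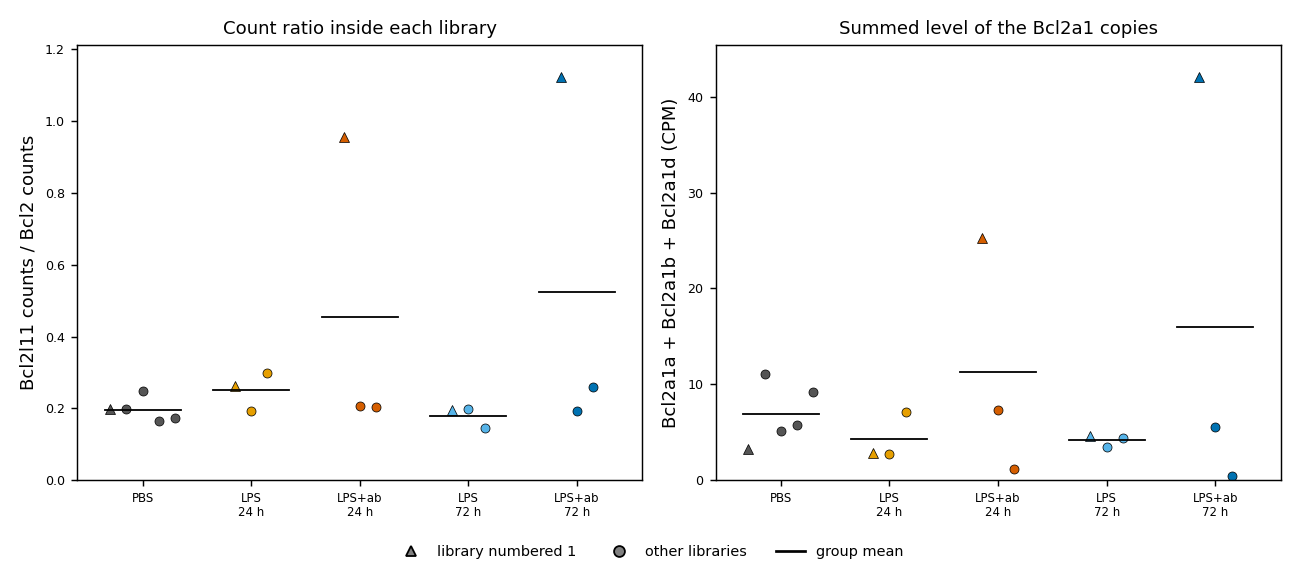
Left, the ratio of Bcl2l11 to Bcl2 counts inside each library; right, the summed CPM of Bcl2a1a, Bcl2a1b and Bcl2a1d; both axes are linear and start at 0, triangles are libraries numbered 1 and bars are group means. In the 2 antibody groups the triangle lies far above the other 2 libraries (0.956 and 1.12 for the ratio, 25.2 and 42.1 CPM for the copies).

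Of 14 other family genes listed, 9 passed the filter (Bcl2a1c, Bcl2l10, Bik, Hrk and Bcl2l15 did not). After LPS at 24 h 2 rose (Pmaip1 and Bax) and 1 fell (Bok), beside 19.1% and 18.5% of all genes. With the antibody at 24 h the counts were again 2 and 1, beside 11.7% and 12.5%. With the antibody at 72 h 1 rose, beside 6.81%, and after LPS alone at 72 h none was called, beside 0.0201% of all genes. Pmaip1, for the BH3-only protein NOXA that binds MCL1, led these rises. PBS libraries held 5.78, 5.75, 3.16, 3.07 and 4.63 CPM of Pmaip1, LPS libraries 14.1, 12.9 and 14.1 at 24 h and 6.41, 16.9 and 17.5 at 72 h, and LPS plus antibody libraries 15.2, 22.3 and 19.7 at 24 h and 22.4, 22.6 and 37.7 at 72 h. All 12 libraries after LPS exceeded the 5 PBS libraries. The log2 change was 1.62 (SE 0.30, edgeR adjusted p = 0.00128) after LPS at 24 h, 2.09 (adjusted p = 0.00346) and 2.63 (adjusted p = 0.00166) with the antibody at 24 h and 72 h, and 1.61 after LPS at 72 h, where it did not pass (adjusted p = 0.129). The antibody effect on Pmaip1 at 72 h was 1.02 (adjusted p = 0.055).

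Bbc3, for PUMA, was not called in any comparison (-0.41 after LPS at 24 h, adjusted p = 0.384). Bok, a BAX-like gene, was low, with changes of -1.51 (adjusted p = 0.025) after LPS and -1.50 (adjusted p = 0.0386) with the antibody at 24 h. Neither call of Bok held throughout when single libraries were left out, with adjusted p up to 0.115 and 0.13. Bcl2l12, an atypical family gene, was lower with the antibody at 72 h (antibody effect -0.74, adjusted p = 0.0227), a call lost without any of 3 libraries (adjusted p up to 0.111).

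A list of 17 genes of caspase activation, death receptor signalling (Casp8, Fadd and Cflar) and other mitochondrial death factors (Aifm1, Endog and Vdac2) was tested in full. After LPS at 24 h 5 rose and 2 fell, beside 19.1% and 18.5% of all genes (median log2 change 0.24, all genes -0.03). With the antibody at 24 h 5 rose and 1 fell, beside 11.7% and 12.5% of all genes. With the antibody at 72 h 2 rose, beside 6.81%, and after LPS alone at 72 h none was called, beside 0.0201% of all genes. Cycs, for the cytochrome c that BAK and BAX release, rose from 150 ± 37.9 CPM in PBS (n = 5) to 390 ± 181 after LPS (n = 3), which is 1.38 on the log2 scale (SE 0.27, edgeR adjusted p = 0.00164). With the antibody at 24 h Cycs rose by 0.95 (adjusted p = 0.0217), a call lost without library 2 (0.88, adjusted p = 0.0886) or library 3 (0.87, adjusted p = 0.0616) of that group. From 24 h to 72 h of LPS alone 4 genes rose and 5 fell, beside 14.7% and 16.4% of all genes, among them Cycs (-1.41, adjusted p = 0.00384), Endog (-1.21, adjusted p = 0.00259), a mitochondrial nuclease, and Casp6 (1.12, adjusted p = 0.00371), an executioner caspase. Apaf1, the scaffold on which cytochrome c activates caspase-9, rose with the antibody at 72 h against PBS (0.75, SE 0.15, adjusted p = 0.00936).

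The antibody effect at 72 h was called for 3 of these 17 genes, near the 15.1% of all genes. Casp6 was lower (-0.92, adjusted p = 0.0218), and Vdac2, for a mitochondrial channel that binds BAK, and Aifm1 were higher (0.67, adjusted p = 0.0429, and 0.57, adjusted p = 0.0494). Each of these calls was lost when some single libraries were left out: in 3 of 6 cases for Casp6 and in 5 of 6 for Vdac2 and for Aifm1, with adjusted p up to 0.0978, 0.115 and 0.198. Counting all alternatives, the call of Aifm1 was lost in 11 of 14, other scaling factors and filters and the replicate block included, that of Vdac2 in 5 and that of Casp6 in 4. Mean Vdac2 was 209 CPM in PBS, 445 after LPS and 387 with the antibody at 24 h, and 215 and 343 at 72 h. In the same order, mean Aifm1 was 61.4, 92.6, 82.9, 55.5 and 82.4 CPM, and mean Casp6 22.3, 14.75, 16.9, 32 and 16.9 CPM.

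Of 10 regulators upstream of the family, 2 fell after LPS at 24 h (18.5% of all genes were lower), 2 with the antibody at 24 h (12.5% of all genes) and 1 with the antibody at 72 h (6.43% of all genes). They include the FOXO transcription factors, which are known to activate Bcl2l11. Foxo1 stood at 17.7 ± 3.12 CPM in PBS (n = 5) and 7.39 ± 3.07 after LPS at 24 h (n = 3), which is -1.25 on the log2 scale (SE 0.30, edgeR adjusted p = 0.00472). With the antibody at 24 h the change of Foxo1 was -0.90 (adjusted p = 0.0366), and from 24 h to 72 h of LPS alone it was 0.98 (adjusted p = 0.0296). These 2 calls were lost in 5 of 8 and 4 of 6 cases when a single library was left out. Foxo3 was lower with the antibody at 72 h, at 98.3 ± 7.56 CPM (n = 3) against 146 ± 11.1 in PBS (n = 5), a change of -0.58 (adjusted p = 0.0178) that was lost in 3 of 8 such cases. The low level of Foxo3 was not particular to that group. At 24 h it stood at 83.5 ± 18.1 CPM after LPS alone and 86.1 ± 13.3 with the antibody (n = 3 each). After LPS alone at 72 h it was 131 ± 9.64 CPM (n = 3).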

How the data were processed

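The submitters' processing notes name HISAT2 2.2.0, Subread, featureCounts 2.1.1, R 4.3.2, DESeq2 and the build GRCm38, without their roles. Annotation, strand setting and multi-mapping rule are not given in the sources used here. The authors deposited raw counts per gene symbol, which were used as they are, and 0 columns went unmatched to a label. Counts were analysed with edgeR 4.0.16 (R 4.3.3): filterByExpr (minimum count 10), which kept 99.93% of the counts, TMM factors, and quasi-likelihood tests in 1 fit to 17 libraries with a mean per group, checked on simulated data. P-values were adjusted over 14920 genes within each comparison (Benjamini-Hochberg). CPM uses TMM-scaled library sizes. No 2 libraries of a group agreed within sampling noise (lowest chi-square per degree of freedom 11.12).

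Members and gene lists were chosen with earlier results of these data known. Named were all members, Bax, Bbc3 and Pmaip1, the 2 called list genes with the greatest rise and fall per comparison, and the 2 genes most correlated with each called member. Ggnbp1 was added after its overlap was seen.

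For LPS at 24 h against PBS, same-numbered libraries deviated together (correlations 0.1914, 0.188 and 0.1578). Between LPS plus antibody at 72 h and at 24 h, libraries 1 and 3 did so more strongly (0.723 and 0.6966), and libraries 2 did not (-0.02165). In each comparison other than the first, at least 1 pair was below 0.1. Differently numbered libraries were not correlated in this way, so these correlations have no baseline. The main fit did not use the replicate numbers. Alternatives were other scaling factors, filters, DESeq2 1.42.0, smaller fits, the block and left-out libraries. Promoters were from RefSeq (10 of 10 members matched).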

Additional observations from a re-analysis of the deposited data

Results flagged for a closer look

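The LPS effect on Bak1 differed between the times. Against PBS it was 1.04 on the log2 scale at 24 h and 0.17 at 72 h, and the tested difference between 72 h and 24 h was -0.86 (edgeR adjusted p = 0.00368). The LPS effect on Bmf differed in the opposite direction, by 2.13 (edgeR adjusted p = 0.0169), between -1.90 at 24 h and a level within the PBS range at 72 h. The difference for Bmf did not pass without library 1 of LPS at 24 h (1.75, adjusted p = 0.0635). No PBS library was far from the other 4 for any member by Dixon's criterion, and groups of 3 libraries were not examined that way.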

How the results depend on the processing

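Over 50 log2 changes and 760 alternatives, 663 kept their direction and side of the threshold, 64 lost the call, 17 gained one and 16 changed sign; the causes were not tested. Leaving out single libraries, the number of members called ran from 1 to 4 for LPS at 24 h against PBS (22.0% to 36.6% of all genes). It ran from 1 to 2 for LPS plus antibody at 24 h (5.73% to 23.0% of all genes) and 0 to 1 at 72 h (3.82% to 13.5%). For LPS at 72 h against 24 h it was 1 to 4 (20.9% to 29.5%), and for the antibody effect at 72 h 0 to 1 (5.02% to 14.9%). For LPS plus antibody at 24 h against PBS, 2 members were called with upper-quartile factors (23.1% of all genes), with DESeq2 (28.4%) and in a fit of only the groups compared (28.3%). The same number was called without the 3 libraries that stood apart (30.0%), an alternative added after seeing the data. For the antibody effect at 72 h, 2 were called with DESeq2 (20.3% of all genes), 2 with the replicate block (11.9%) and 1 in a fit of only the groups compared (8.11%). The block treats same-numbered libraries as pairs, which the labels do not state. With it, Bad after LPS at 24 h gave 0.53 (edgeR adjusted p = 0.0699), and Bak1 and Bmf kept their calls (1.02 and -1.92). Over all genes, the calls of LPS at 72 h against PBS went from 3 to 178 with DESeq2, 99 in a fit of only the groups compared and 0 with the block, those of the antibody effect at 72 h from 2256 to 1123 in a fit of only the groups compared, and those of the difference between the antibody effects from 947 to 617 without a filter, 286 in a fit of only the groups compared and 1664 with DESeq2.

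Signs changed only for values without a call. For Mcl1 against PBS, single left-out libraries gave -0.0175 to 0.0894 for LPS at 72 h and -0.1672 to 0.0944 for LPS plus antibody at 24 h, no filter gave 0.0115 at 24 h, and leaving out the 3 libraries gave -0.0176 with the antibody at 72 h. The antibody effect on Bcl2l11 ran from -0.1018 to 0.7956 at 24 h and -0.1371 to 0.7996 at 72 h, and was -0.2734 and -0.1758 without the 3 libraries. That on Bcl2a1b ran from -0.4467 to 3.0561 at 72 h, and was -0.0144 at 24 h and -0.497 at 72 h without them. Upper-quartile factors moved the median of all genes after LPS at 24 h from -0.027 to -0.156. Counts of 6 for Bmf and 2 for Bcl2a1b in their lowest libraries limit the precision of both, and 3 libraries per group that of all members.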
